A study of Homo sapiens with 12 samples.

Results

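Solvent-treated HCT116 cells harvested 24 h after addition of DMSO were compared with solvent-treated cells harvested at 16 h. HCT116 is an established human colorectal carcinoma line. The comparison was taken from the library names, which give the solvent and the time, and it used 4 of the 12 libraries of the series: libraries 5 and 6 at 16 h and libraries 11 and 12 at 24 h. No drug was present in these cultures, so the contrast gave the drug-free change between the 2 times against which the drug comparisons of the series are set. Every library at 16 h carries a number from 1 to 6 and every library at 24 h a number from 7 to 12. Time in culture therefore cannot be told apart from any handling that differed between the 2 times. The other 8 libraries came from cells given the tubulin-binding peptide dolastatin 15, an inhibitor of microtubule polymerisation, at 20 nM or 100 nM and harvested at the same 2 times, with 2 libraries per group. Per the labels' protocols, cells of all groups were plated in 6-well plates in medium with 5% serum, were left overnight to attach, and were held at 0.25% DMSO from then on. The labels do not say whether the 2 samples of a group were separate cultures. The p-values here rest on how far the 2 samples of each group lay apart, pooled over all 6 groups, dosed ones included. The spread of other genes also enters. All of this may be technical spread.

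A plate of untreated cells is not at rest. Cells attach, spread and divide, serum and nutrients are used up, and cell density rises. Known responses to density and to a loss of cytoskeletal tension include lower transcription of the targets of YAP and TAZ, coactivators that bind DNA through TEAD factors, and of SRF, which is driven by actin polymerisation. Notch signalling passes between touching cells and acts through HES genes, while serum growth factors act through ERK, whose output induces its own inhibitors, the Sprouty and DUSP proteins. The gene lists used below were built around these processes, the cell cycle, ribosome production, lipid synthesis and stress responses.

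The deposited values were FPKM, fragments scaled to transcript length and library size, so levels of different genes can be set side by side. Within the table, relative depth was read from the spacing of low values: with library 5 set to 1, library 6 had 1.14, library 11 had 1.37 and library 12 had 1.24 times as many fragments, in a range of 0.916 to 1.53 over the 12 libraries. Both 24 h libraries were thus deeper than both 16 h libraries. Across tested genes the correlation of log2 values was 0.992 for the 16 h pair and 0.993 for the 24 h pair, against 0.986 to 0.990 between times. The epithelial identity of the cells was checked. In all 4 libraries 7 of 10 epithelial markers were at 1 FPKM or more, with CDH1 the lowest of these at 2.91 to 3.65 FPKM. CEACAM5 was listed at 0, GPA33 was at 0.04 to 0.06 FPKM and LGALS4 at 0.09 to 0.12 FPKM. The summed level was 1408 to 1469 FPKM at 16 h and 1366 to 1384 FPKM at 24 h. Summed levels for other cell types were low, with 3.84 to 4.75 FPKM for 8 fibroblast genes (DCN, FAP, LUM and PDGFRA at 0), 1.98 to 3.93 FPKM for 8 leukocyte genes (CD3E at 0) and 0.19 to 0.27 FPKM for 5 endothelial genes. Most of the fibroblast sum was COL1A1, at 3.38 to 4.34 FPKM, a level like that of CDH1.

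Between 16 h and 24 h in solvent, 756 of 13458 tested genes changed (5.62%), 423 upward (3.14%) and 333 downward (2.47%). The changes were small. Their median size was 0.33 on the log2(FPKM + 1) scale used throughout (quartiles 0.26 and 0.43), the smallest change called was 0.14, and 123 genes reached 0.5. Of 23 called genes that reached 1, 5 were protein-coding and 12 had a library listed at 0. A gene was called when its adjusted p was under 0.05 by limma, a linear model fitted to all tested genes in all 12 libraries, with Benjamini-Hochberg adjustment. For all 756 genes both values at one time lay beyond both values at the other, which also held for 7744 of all tested genes (57.5%). At an unadjusted p under 0.05 there were 3410 genes, and the median change of all tested genes was 0.02.

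The number of calls depended on the 2 libraries of each time. Without library 5 the fit called 23 genes, without library 6 it called 98, without library 11 it called 89 and without library 12 it called 44. Most of the 756 genes were not called again in these 4 fits. Their direction could not change in them, because both values at one time lay beyond both values at the other. The lone library left in a group was assumed to vary like the other groups. Dosed libraries enter through the shared estimate of spread: 491 genes were called without library 1 or 2, 490 without library 9 or 10, 1435 without library 7 and 1437 without library 8. A fit of the 4 solvent libraries alone, with 2 residual degrees of freedom, called 6 genes, and 3397 passed an unadjusted p under 0.05. The balance of directions followed the scaling, with 423 up and 333 down as deposited, 975 up and 212 down once every library was brought to the same total (TPM), 376 up and 576 down once nuclear genes were brought to the same total, and 358 up and 572 down with median-of-ratios scaling. Deposited FPKM sums were 959812 and 948393 at 16 h and 911720.3 and 929715 at 24 h. The longest annotated transcript had a median of 2698 bases among genes that fell, 3155 among genes that rose and 3331 among all tested genes. The part of depth, of the FPKM sums and of transcript length in the calls was not tested. Of 167 genes examined singly below, 49 overlap another annotated gene on their own strand and 79 on the other strand, and reads of such genes may have been divided between them. Called genes named below are followed by the libraries whose absence ended the call, and where values in each library are given the change stands with its standard error (SE).

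**Figure D1:**
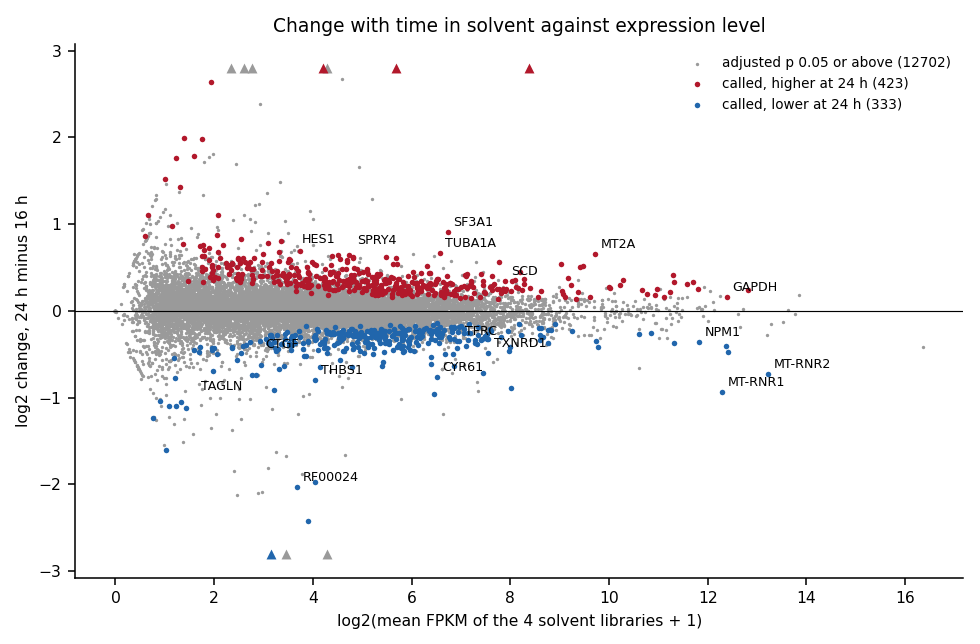
Change with time in solvent (y axis, log2 change at 24 h minus 16 h) against level (x axis, log2 of the mean FPKM of the 4 solvent libraries plus 1), 1 point per tested gene. Red points are the 423 genes called higher and blue points the 333 called lower, and triangles are the 10 genes beyond 2.8 in size. Most called genes lie within 0.5 of 0, and the mitochondrial ribosomal RNAs MT-RNR1 and MT-RNR2 stand out among genes of high level.

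A set of 15 genes, 8 up and 7 down, was called in the full fit and also in every fit that left out 1 library. A fit of the 4 solvent libraries alone called 3 of them, CYR61, BCYRN1 and RF00024. The 8 that rose were the Notch effector HES1, the ERK inhibitor SPRY4, the alpha-tubulin gene TUBA1A, LARP6 (an RNA-binding protein), CNOT11 (a subunit of the CCR4-NOT deadenylase), SCD (the stearoyl-CoA desaturase), SFPQ (a splicing factor of paraspeckles) and the small RNA BCYRN1. The 7 that fell were the YAP target CYR61, PLEC (plectin, a linker of intermediate filaments), TFRC (the transferrin receptor), AARSD1, both mitochondrial ribosomal RNAs MT-RNR1 and MT-RNR2, and the small noncoding RNA RF00024. HES1 was at 17.7 and 17.6 FPKM at 16 h and 27.7 and 26.9 FPKM at 24 h (0.60 ± 0.04, adjusted p = 0.000552). SPRY4 was at 21.5 and 20.8 FPKM at 16 h and 34 and 31.9 FPKM at 24 h (0.62 ± 0.06, adjusted p = 0.00484), and TUBA1A at 73.2 and 71.2 FPKM at 16 h and 111 and 119 FPKM at 24 h (0.67 ± 0.05, adjusted p = 0.0011). In each of these 3 genes the pair at 16 h lay well below the pair at 24 h. LARP6 rose from 15 and 15.6 FPKM to 24.3 and 24.5 FPKM (0.64 ± 0.06, adjusted p = 0.00342). CNOT11 had 33.2 and 34.8 FPKM at 16 h and 53 and 53 FPKM at 24 h (0.63 ± 0.06, adjusted p = 0.00353). SCD, which makes monounsaturated fatty acids, reached 212 and 203 FPKM at 16 h and 266 and 263 FPKM at 24 h (0.35 ± 0.04, adjusted p = 0.00669). SFPQ was at 240.1 and 237 FPKM at 16 h and 297 and 313 FPKM at 24 h (0.35 ± 0.04, adjusted p = 0.00452). Among the genes that fell, PLEC went from 95.8 and 100.0 FPKM to 66.3 and 68.2 FPKM (-0.53 ± 0.04, adjusted p = 0.0012). TFRC, which imports iron, was at 141 and 137 FPKM at 16 h and 111 and 108 FPKM at 24 h (-0.34 ± 0.03, adjusted p = 0.00394), and AARSD1 at 40.7 and 40.2 FPKM at 16 h and 30.4 and 31.4 FPKM at 24 h (-0.38 ± 0.04, adjusted p = 0.00452). No library at one time overlapped a library at the other in any of these genes. TUBA1A overlaps TUBA1C on the other strand and has near-identical relatives among which reads are divided, and LARP6, CNOT11 and SPRY4 also overlap a gene on the other strand, so their values carry that uncertainty. AARSD1 shares its strand and place with the read-through gene PTGES3L-AARSD1, and RF00024 with TERC, the telomerase RNA, so in both reads of 1 locus may be divided between 2 annotations. LARP6 and PLEC overlap another annotated gene on their own strand.

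**Figure D2:**
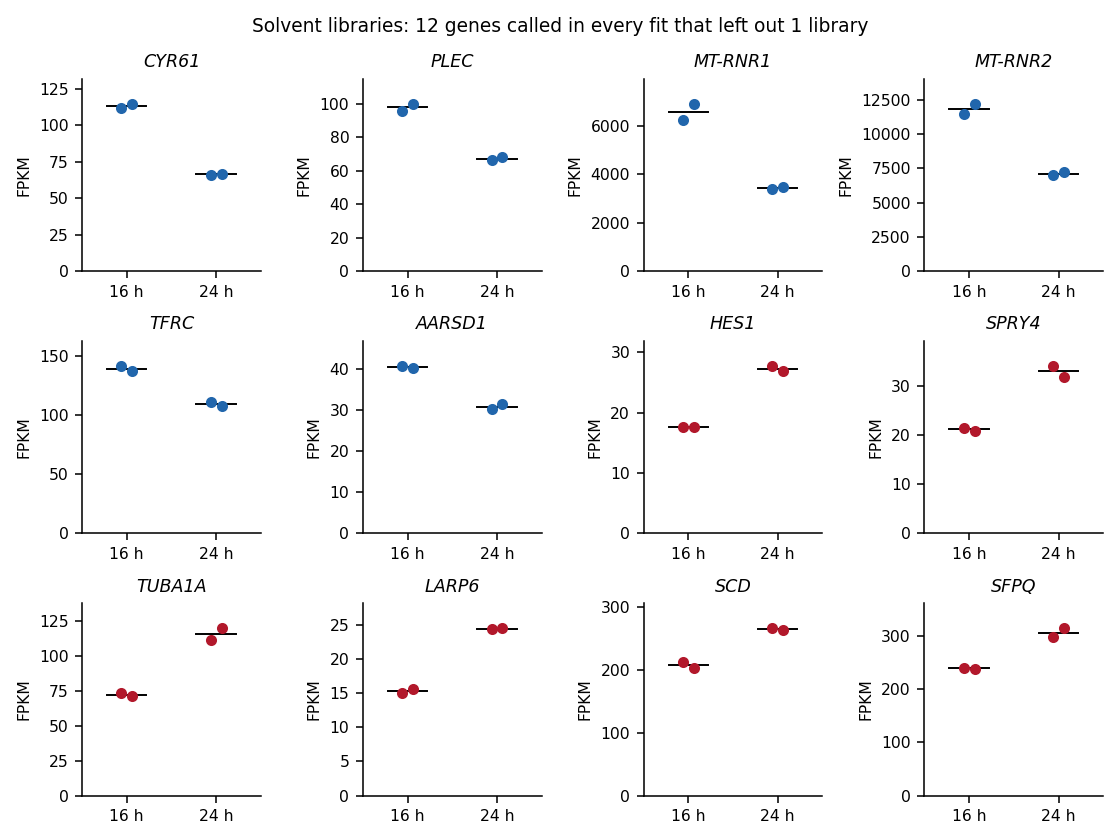
FPKM (y axis, from 0) of 12 of the 15 genes called in every fit that left out 1 library, in the solvent libraries at 16 h (libraries 5 and 6) and 24 h (libraries 11 and 12). Points are libraries, lines are group means, blue marks genes that fell and red genes that rose. In each panel the pair at 24 h is clear of the pair at 16 h, as for CYR61 (112 and 115 against 66.3 and 66.8 FPKM).

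RNAs of the mitochondrial genome changed unevenly. The ribosomal RNAs, which form the mitochondrial ribosome and carry short poly(A) tails at most, fell by more than any of the coding genes. MT-RNR1 was at 6216 and 6889 FPKM at 16 h and 3376 and 3457 FPKM at 24 h (-0.94 ± 0.06, adjusted p = 0.000327), and MT-RNR2 at 11479 and 12221 FPKM at 16 h and 6994 and 7272 FPKM at 24 h (-0.73 ± 0.05, adjusted p = 0.000301). Both pairs at 24 h lay far below the pairs at 16 h. Of the 13 mitochondrial genes that code for subunits of respiratory complexes, 2 fell, none rose, and the median change was -0.19, against 0.02 for all tested genes. The subunits of complex I MT-ND3 (6249 and 6494 FPKM at 16 h and 4555 and 4619 FPKM at 24 h, -0.47 ± 0.08, adjusted p = 0.0159) and MT-ND1 (5792 and 6227 FPKM at 16 h and 4493 and 4601 FPKM at 24 h, -0.40 ± 0.06, adjusted p = 0.0135) were those called. In 10 of the 13 both libraries at 24 h were below both at 16 h. MT-ATP8, at 97106 and 95301 FPKM at 16 h and 69910.2 and 74112 FPKM at 24 h, missed the threshold (-0.42 ± 0.10, adjusted p = 0.0501). By contrast MT-CO2, a subunit of complex IV, had overlapping values of 13553 and 11794 FPKM at 16 h and 12191 and 13332 FPKM at 24 h (0.01 ± 0.07, adjusted p = 0.94). Genes of the mitochondrial genome together took 21.6% and 22.2% of the FPKM sum at 16 h and 17.9% and 18.6% at 24 h, and MT-ATP8 alone took 10.1% and 10% of it against 7.67% and 7.97%. The part of this shift in the levels of other genes was not tested. Of 33 nuclear genes for respiratory chain subunits, NDUFA1 (0.22) and UQCRFS1 (0.18) rose and SDHD fell (-0.37), and the median was -0.04. In 16 of the 33 both libraries at 24 h were below both at 16 h, and in 5 they were above. These counts, and the 10 of 13 above, are to be read against 57.5% of all tested genes without overlap in either direction. No coding gene of the mitochondrial list was called without library 5, 6, 11 or 12. MT-ATP8 and SDHD overlap another annotated gene on their own strand. NDUFA1 and UQCRFS1 were lost with nuclear genes brought to the same total and with median-of-ratios scaling. The calls of MT-ND1 and MT-ND3 ended without library 5, 6, 11 or 12 (adjusted p = 0.0677 to 0.0941). The calls of NDUFA1 and UQCRFS1 ended without library 1, 2, 3, 4, 5, 6, 9, 10, 11 or 12 (adjusted p = 0.0541 to 0.211). The call of SDHD ended without library 5, 6, 9, 10, 11 or 12 (adjusted p = 0.0503 to 0.162).

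Targets of YAP and TEAD, as a list, contained 21 tested genes, of which 6 fell and none rose, with a median change of -0.06. The 6 were CYR61 (-0.76) and CTGF (-0.63), matricellular proteins secreted around cells, F3 (-0.41, tissue factor), the receptor kinase AXL (-0.29), the Hippo pathway scaffold AMOTL2 (-0.25) and the membrane repair protein MYOF (-0.22). CYR61, at chr1:85580761-85583962, plus strand, had 112 and 115 FPKM at 16 h and 66.3 and 66.8 FPKM at 24 h (-0.76 ± 0.04, adjusted p = 0.000301). It was 1 of the 6 genes called by the fit of the 4 solvent libraries alone, with an adjusted p of 0.0341. CTGF, at chr6:131948176-131951373, minus strand, was less abundant, with 8.93 and 7.95 FPKM at 16 h and 5.02 and 5.2 FPKM at 24 h (-0.63 ± 0.09, adjusted p = 0.0126), and it overlaps AL133346.1 on the other strand. In both genes the values at 16 h lay above those at 24 h by more than the spread of each pair. The number of list members that fell was 1, 2, 1 and 1 without library 5, 6, 11 and 12, and it was 5 after rescaling to a common sum (TPM), where MYOF was lost. AMOTL2 overlaps another annotated gene on its own strand. The calls of F3 and AXL ended without library 5, 6, 11 or 12 (adjusted p = 0.0582 to 0.123). The calls of AMOTL2 and MYOF ended without library 1, 2, 5, 6, 9, 10, 11 or 12 (adjusted p = 0.0515 to 0.204). The call of CTGF ended without library 5, 11 or 12 (adjusted p = 0.0583 to 0.0904).

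THBS1, another secreted matricellular protein and, as background, a target of several of these factors, fell from 20.9 and 18.9 FPKM to 10.6 and 11.3 FPKM (-0.80 ± 0.11, adjusted p = 0.0126), the largest decrease among called list members. Promoter sequence was looked at for the TEAD motif GGAATG, searched on both strands in the 250 bases before the gene start, with RefSeq gene starts on GRCh38.p14. CTGF held 3 copies and THBS1 held 1. No promoter of CYR61 was available, and motif counts of F3, AXL, AMOTL2 and MYOF are not given. CTGF and THBS1 are thus examples and do not give the share of YAP targets with the motif. Both genes fell, and their windows are shown with the motif in capitals. They are CTGF at chr6:131951373-131951622, minus strand, and THBS1 at chr15:39580829-39581078, plus strand.
CTGF: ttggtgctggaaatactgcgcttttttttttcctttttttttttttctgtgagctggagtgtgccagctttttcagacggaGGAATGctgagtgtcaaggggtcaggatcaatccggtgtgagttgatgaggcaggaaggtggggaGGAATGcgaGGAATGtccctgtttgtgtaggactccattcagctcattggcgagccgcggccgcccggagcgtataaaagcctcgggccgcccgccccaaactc
THBS1: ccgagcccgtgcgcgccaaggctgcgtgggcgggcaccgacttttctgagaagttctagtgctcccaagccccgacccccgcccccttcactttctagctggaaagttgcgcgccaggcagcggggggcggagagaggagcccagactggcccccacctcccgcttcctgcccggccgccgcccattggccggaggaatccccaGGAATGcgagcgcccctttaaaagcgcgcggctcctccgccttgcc
The copies in CTGF started at -169, -104 and -95 from the gene start, and that in THBS1 at -46. The motif is short and common: it was found in 11.2% of 258 promoters of genes that fell, in 9.76% of 328 of genes that rose, in 9.06% of 9882 of tested genes and in 11.9% of all 27305 promoters. THBS1 overlaps another annotated gene on its own strand. The call of THBS1 ended without library 5, 11 or 12 (adjusted p = 0.06 to 0.0904).

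Among 26 SRF targets and actin genes 3 fell and 1 rose, with a median of -0.03. TAGLN, the actin-bundling protein transgelin, had 7.32 and 8.62 FPKM at 16 h and 4.43 and 4.3 FPKM at 24 h (-0.74 ± 0.11, adjusted p = 0.0134). MYH9, the heavy chain of nonmuscle myosin, was at 178 and 171 FPKM at 16 h and 134 and 141 FPKM at 24 h (-0.34 ± 0.04, adjusted p = 0.01), and FLNA, the actin crosslinker filamin, at 276 and 259 FPKM at 16 h and 223 and 231 FPKM at 24 h (-0.23 ± 0.04, adjusted p = 0.0171). All 3 had both values at 24 h below both at 16 h. CALD1 (caldesmon) rose by 0.20, and the median changed sign, to 0.02, after rescaling to a common sum. Of 20 genes for matrix proteins and their receptors THBS1 and the collagen COL12A1 fell (6.35 and 6.59 FPKM at 16 h and 4.56 and 5.1 FPKM at 24 h, -0.36 ± 0.07, adjusted p = 0.0243), while the proteoglycan SDC1 rose (11.9 and 12.5 FPKM at 16 h and 18.6 and 17.9 FPKM at 24 h, 0.54 ± 0.06, adjusted p = 0.0049). The median of the matrix list was -0.13. The actin list had 0, 2, 0 and 1 members called lower without library 5, 6, 11 and 12, and TAGLN overlaps PCSK7 on the other strand. MYH9 overlaps another annotated gene on its own strand. The calls of TAGLN and COL12A1 ended without library 5, 6, 11 or 12 (adjusted p = 0.0567 to 0.111). The call of MYH9 ended without library 5 or 11 (adjusted p = 0.057 to 0.0797). The call of FLNA ended without library 5, 11 or 12 (adjusted p = 0.0842 to 0.107). The call of SDC1 ended without library 5 (adjusted p = 0.0567). The call of CALD1 ended without library 5, 6, 9, 10, 11 or 12 (adjusted p = 0.0515 to 0.171).

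Metallothioneins are small cysteine-rich proteins that bind zinc and copper. They are induced by metals and oxidants through the factor MTF1, and also by glucocorticoids. Most of their tested members changed. MT2A, at chr16:56608199-56609497, plus strand, rose from 604 and 705 FPKM to 1009 and 1056 FPKM (0.66 ± 0.10, adjusted p = 0.0143). MT1E was at 521 and 595 FPKM at 16 h and 815 and 773 FPKM at 24 h (0.51 ± 0.10, adjusted p = 0.023), and MT1F at 10.8 and 11.6 FPKM at 16 h and 15.8 and 16.8 FPKM at 24 h (0.51 ± 0.09, adjusted p = 0.0188). MT1X, at 137 and 157 FPKM at 16 h and 194 and 209 FPKM at 24 h, did not overlap between times either but missed the threshold (0.45 ± 0.14, adjusted p = 0.0925). SLC30A1, the zinc exporter of the cell membrane and, as background, also a target of MTF1, fell instead (7.56 and 7.38 FPKM at 16 h and 5.81 and 5.49 FPKM at 24 h, -0.35 ± 0.06, adjusted p = 0.0229). Over the 6 tested members of the list, 3 rose, 1 fell and the median was 0.48, the highest of the 37 lists. The number of members that rose was 0, 1, 0 and 0 without library 5, 6, 11 and 12. Metallothionein genes are close copies of each other, and division of reads among them is uncertain. MT1X overlaps another annotated gene on its own strand. The calls of MT1E, MT1F and SLC30A1 ended without library 5, 6, 11 or 12 (adjusted p = 0.0544 to 0.142). The call of MT2A ended without library 5, 11 or 12 (adjusted p = 0.0583 to 0.0958).

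Promoters of 2 of these genes were searched for the core of the metal response element on both strands, spelled TGCGCNC or TGCACNC, a motif chosen after the values were seen. MT2A held 7 copies and MT1X held 4 in the 250 bases before the gene start (RefSeq, GRCh38.p14). The windows are MT2A at chr16:56608334-56608583 and MT1X at chr16:56682220-56682469, both on the plus strand, with the cores in capitals. The gene model of MT2A given above starts upstream of the RefSeq start, so its window lies inside that model.
MT2A: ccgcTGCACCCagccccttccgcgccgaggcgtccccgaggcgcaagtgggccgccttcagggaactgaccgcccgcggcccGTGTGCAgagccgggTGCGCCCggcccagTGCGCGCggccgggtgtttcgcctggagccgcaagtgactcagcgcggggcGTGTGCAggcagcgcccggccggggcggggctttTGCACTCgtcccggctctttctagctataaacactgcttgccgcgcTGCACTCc
MT1X: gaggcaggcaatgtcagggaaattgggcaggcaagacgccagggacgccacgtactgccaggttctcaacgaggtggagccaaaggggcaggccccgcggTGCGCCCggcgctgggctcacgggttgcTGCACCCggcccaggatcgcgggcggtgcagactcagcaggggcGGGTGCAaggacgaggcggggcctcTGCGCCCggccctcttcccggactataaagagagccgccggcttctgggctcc
One or more copies of the form TGCGCNC were found in 29.3% of promoters of genes that rose, 27.1% of genes that fell, 27.4% of tested genes and 16.9% of all promoters, and of the form TGCACNC in 10.1%, 9.3%, 9.28% and 9.73%. The 2 promoters belong to related genes, so their copies are not independent.

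Inhibitors and feedback genes of growth pathways changed in a small number. Of 11 Notch pathway genes 2 rose, HES1 and NRARP, a feedback inhibitor of Notch (16.4 and 17.1 FPKM at 16 h and 21.8 and 20.7 FPKM at 24 h, 0.33 ± 0.05, adjusted p = 0.0135), and the list median was 0.03. Of 21 genes of ERK feedback and output, SPRY4 and PHLDA1 (0.20) rose and FOSL1, an AP-1 subunit sustained by ERK, fell (203 and 204 FPKM at 16 h and 162 and 162 FPKM at 24 h, -0.33 ± 0.05, adjusted p = 0.0126), with a median of 0.01. Among 12 TGF-beta and BMP targets the differentiation inhibitors ID2 (9.21 and 8.29 FPKM at 16 h and 11.9 and 13.9 FPKM at 24 h, 0.51 ± 0.12, adjusted p = 0.04) and ID3 (0.20) rose and CTGF fell. Of 16 Wnt targets SOX9, a factor of intestinal crypt cells, rose (10.7 and 10.0 FPKM at 16 h and 13.4 and 14.2 FPKM at 24 h, 0.38 ± 0.06, adjusted p = 0.016), as did SOX4 (0.22). Each of these lists had 2 or 3 members called, and the others did not pass. Of 21 CDK inhibitors and genes of quiescence 4 rose and 1 fell, with a median of 0.15. CCNG2, a cyclin of resting cells, was at 3.88 and 3.66 FPKM at 16 h and 6.12 and 6.4 FPKM at 24 h (0.61 ± 0.13, adjusted p = 0.0311). The antiproliferative gene TOB1 was at 32.7 and 34.1 FPKM at 16 h and 46.1 and 42.7 FPKM at 24 h (0.40 ± 0.05, adjusted p = 0.0119) and CDKN2A, which encodes p16 and ARF, at 167 and 175 FPKM at 16 h and 228 and 224 FPKM at 24 h (0.40 ± 0.07, adjusted p = 0.0181). The CDK inhibitor CDKN1C rose by 0.43, and KLF6 fell by 0.22. SOX4 was lost under rescaling over nuclear genes and median-of-ratios scaling, KLF6 under rescaling to a common sum and CDKN1C with a pseudocount of 0.1. The calls of NRARP, FOSL1, SOX9, CCNG2, CDKN2A and PHLDA1 ended without library 5, 6, 11 or 12 (adjusted p = 0.0508 to 0.162). The calls of ID2 and KLF6 ended without library 1, 2, 5, 6, 9, 10, 11 or 12 (adjusted p = 0.0582 to 0.21). The calls of SOX4 and CDKN1C ended without library 1, 2, 3, 4, 5, 6, 9, 10, 11 or 12 (adjusted p = 0.0504 to 0.17). The call of ID3 ended without library 1, 2, 5, 6, 11 or 12 (adjusted p = 0.0535 to 0.151). The call of TOB1 ended without library 5 or 11 (adjusted p = 0.0582 to 0.0829).

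The cell cycle lists moved little. Of 46 genes of G2 and mitosis 6 rose and 1 fell, with a median of 0.08. BUB1B, a spindle checkpoint kinase, was at 68.3 and 68.4 FPKM at 16 h and 97.8 and 88.1 FPKM at 24 h (0.44 ± 0.07, adjusted p = 0.0135). PLK1, the polo kinase of mitosis, was at 167 and 165 FPKM at 16 h and 192 and 192 FPKM at 24 h (0.21 ± 0.04, adjusted p = 0.0181), and values of both genes were clear of each other between times. UBE2S (0.27), CDC25B (0.23), KIF20A (0.18) and CCNB2 (0.16) also rose, and the checkpoint gene MAD2L1 fell (-0.37). The balance was 12 up and 0 down after rescaling to a common sum and 4 up and 2 down with median-of-ratios scaling, where KIF20A and CDC25B were lost, as they were after rescaling over nuclear genes. MAD2L1 was lost under the common sum. Of 44 genes of DNA replication and G1/S none rose and 2 fell, GINS4, a subunit of the replicative helicase (33.5 and 36.8 FPKM at 16 h and 25.2 and 25.2 FPKM at 24 h, -0.46 ± 0.09, adjusted p = 0.028), and RFC2 (-0.23), with a median of -0.04. None of 15 replication-dependent histone genes was called. The number of G2 and mitosis genes that rose was 0, 0, 0 and 1 without library 5, 6, 11 and 12. BUB1B and CCNB2 overlap another annotated gene on their own strand. The calls of PLK1, GINS4 and UBE2S ended without library 5, 6, 11 or 12 (adjusted p = 0.0726 to 0.143). The calls of MAD2L1 and CCNB2 ended without library 1, 2, 5, 6, 9, 10, 11 or 12 (adjusted p = 0.0595 to 0.217). The call of BUB1B ended without library 5, 6 or 11 (adjusted p = 0.0586 to 0.0918). The call of RFC2 ended without library 5, 6, 9, 10, 11 or 12 (adjusted p = 0.0554 to 0.16). The call of CDC25B ended without library 1, 2, 3, 4, 5, 6, 11 or 12 (adjusted p = 0.0613 to 0.212). The call of KIF20A ended without library 1, 2, 3, 4, 5, 6, 9, 10, 11 or 12 (adjusted p = 0.0609 to 0.237).

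Several genes for making ribosomes fell. Of 32 genes of the nucleolus and of ribosome assembly, 8 fell and none rose, with a median of -0.11. NPM1 (nucleophosmin), the most abundant, was at 4080.0 and 4082 FPKM at 16 h and 3306 and 3050.3 FPKM at 24 h (-0.36 ± 0.04, adjusted p = 0.00719). The others were BOP1 (-0.32), NOL6 (-0.32), RRP9 (-0.32), NIP7 (-0.28), RRP12 (-0.27), PNO1 (-0.23) and UTP4 (-0.23), which process or assemble ribosomal RNA. NCL (nucleolin), at 1086 and 1116 FPKM at 16 h and 1144 and 1144 FPKM at 24 h, was not called (0.05 ± 0.03, adjusted p = 0.297). Outside the list RRP15, a further assembly factor, rose (14.3 and 19.6 FPKM at 16 h and 26.9 and 26.5 FPKM at 24 h, 0.64 ± 0.13, adjusted p = 0.0286). The count of members that fell was 6 after rescaling to a common sum, where BOP1 was lost, 11 over nuclear genes and 10 with median-of-ratios scaling, and it was 0, 1, 2 and 1 without library 5, 6, 11 and 12. ODC1, the rate-limiting enzyme of polyamine synthesis, fell as well (440.3 and 425 FPKM at 16 h and 351 and 336 FPKM at 24 h, -0.33 ± 0.04, adjusted p = 0.00908). BOP1, NOL6, RRP12, UTP4, NCL and ODC1 overlap another annotated gene on their own strand. PNO1 was lost under TPM. The calls of NOL6, RRP9, RRP12 and UTP4 ended without library 5, 6, 11 or 12 (adjusted p = 0.0553 to 0.151). The call of NPM1 ended without library 5 (adjusted p = 0.0677). The call of BOP1 ended without library 1, 2, 5, 6, 9, 10, 11 or 12 (adjusted p = 0.0517 to 0.156). The call of NIP7 ended without library 5, 6 or 12 (adjusted p = 0.0835 to 0.119). The call of RRP15 ended without library 5, 11 or 12 (adjusted p = 0.107 to 0.142). The call of ODC1 ended without library 5 or 12 (adjusted p = 0.0776 to 0.0835). The call of PNO1 ended without library 1, 2, 3, 4, 5, 6, 9, 10, 11 or 12 (adjusted p = 0.0549 to 0.209).

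Cytosolic ribosomal proteins moved both ways. Of 40 tested, 4 rose and 2 fell and the median was -0.01. RPL19 (0.22), RPLP2 (0.21), RPS6 (0.19) and RPL27 (0.16) rose, and RPL7 (2924 and 2788 FPKM at 16 h and 2294 and 2139 FPKM at 24 h, -0.37 ± 0.07, adjusted p = 0.0266) and RPL10 (-0.26) fell. Members outside the list were among the largest differences in FPKM, upward for RPS27 (6546 and 6722 FPKM at 16 h and 7705 and 7913 FPKM at 24 h, 0.24 ± 0.04, adjusted p = 0.0143), RPL36A (0.42) and RPL41 (0.25) and downward for RPL9 (-0.35). Other abundant mRNAs that rose were those of PTMA (prothymosin alpha, 2744 and 2723 FPKM at 16 h and 3259.9 and 3516 FPKM at 24 h, 0.31 ± 0.04, adjusted p = 0.0126), the poly(A)-binding protein PABPC1 (0.34), the glycolytic enzyme GAPDH (0.16) and AC004057.1 (0.34). The differences in level were large and the changes small: for RPS27 the change was 0.24. Genes in this group have processed copies across the genome that share reads with them. RPL41 was lost with median-of-ratios scaling, AC004057.1 with that and over nuclear genes, and RPL9 under the common sum. RPLP2, RPL10, RPL36A, PTMA and PABPC1 overlap another annotated gene on their own strand. RPL27 was lost with median-of-ratios scaling. The calls of RPLP2, RPS6, RPL7, RPL10 and RPS27 ended without library 5, 6, 11 or 12 (adjusted p = 0.0544 to 0.159). The calls of RPL41, RPL9, PABPC1, GAPDH and AC004057.1 ended without library 1, 2, 5, 6, 9, 10, 11 or 12 (adjusted p = 0.0514 to 0.241). The calls of RPL19 and PTMA ended without library 5, 6 or 12 (adjusted p = 0.0544 to 0.156). The call of RPL36A ended without library 5 or 12 (adjusted p = 0.0908 to 0.0985). The call of RPL27 ended without library 1, 2, 3, 4, 5, 6, 9, 10, 11 or 12 (adjusted p = 0.0586 to 0.208).

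Of 20 targets of NRF2, the factor that induces antioxidant genes, 5 fell and none rose, with a median of -0.05. The 5 belong to the thioredoxin and peroxiredoxin system or to oxidant stress: TXNRD1 (thioredoxin reductase, 224 and 210.2 FPKM at 16 h and 159 and 151 FPKM at 24 h, -0.48 ± 0.05, adjusted p = 0.00545), PRDX1 (peroxiredoxin, 1022 and 978 FPKM at 16 h and 773 and 722 FPKM at 24 h, -0.42 ± 0.09, adjusted p = 0.0363), SRXN1 (sulfiredoxin, -0.31), OSGIN1 (-0.29) and TXN (thioredoxin, -0.15). Both values of each were lower at 24 h. NQO1, a standard target, was level at 127 and 127 FPKM at 16 h and 123 and 123 FPKM at 24 h (-0.04 ± 0.06, adjusted p = 0.671), and GCLM, of glutathione synthesis, missed the threshold (-0.47 ± 0.12, adjusted p = 0.0566). After rescaling to a common sum the list had 2 up, 2 down and a median of 0.00, and PRDX1, TXN and OSGIN1 were lost. The list had 0, 1, 1 and 1 members called lower without library 5, 6, 11 and 12. TXNRD1, SRXN1 and OSGIN1 overlap another annotated gene on their own strand. The calls of OSGIN1 and TXN ended without library 1, 2, 3, 4, 5, 6, 9, 10, 11 or 12 (adjusted p = 0.0582 to 0.199). The call of TXNRD1 ended without library 5 (adjusted p = 0.0567). The call of PRDX1 ended without library 1, 2, 5, 6, 9, 10, 11 or 12 (adjusted p = 0.0534 to 0.19). The call of SRXN1 ended without library 5, 6, 11 or 12 (adjusted p = 0.0679 to 0.146).

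Metabolic lists changed in single members. Of 22 genes of glucose uptake and glycolysis the kinases HK2 (17.9 and 17.6 FPKM at 16 h and 14.2 and 13.6 FPKM at 24 h, -0.33 ± 0.04, adjusted p = 0.0119) and PFKP (-0.19) and the enolase ENO1 (1724 and 1679.6 FPKM at 16 h and 1417 and 1408 FPKM at 24 h, -0.27 ± 0.05, adjusted p = 0.0237) fell and GAPDH rose, while LDHA (0.11 ± 0.04, adjusted p = 0.145) and the glucose transporter SLC2A1 (-0.18 ± 0.11, adjusted p = 0.332) were not called. Of 22 genes of the ATF4 amino acid response, SLC3A2, the heavy chain of amino acid exchangers, fell (159.6 and 150.0 FPKM at 16 h and 119 and 115 FPKM at 24 h, -0.40 ± 0.06, adjusted p = 0.0138), as did STC2 (-0.46), and ASNS (asparagine synthetase) did not pass (-0.08 ± 0.05, adjusted p = 0.315). Of 18 aminoacyl-tRNA synthetases LARS (-0.22) and VARS (-0.26) fell. Of 20 hypoxia targets outside glycolysis BHLHE40 rose (15.2 and 13.5 FPKM at 16 h and 19.4 and 18.7 FPKM at 24 h, 0.38 ± 0.06, adjusted p = 0.0143), and VEGFA did not pass (0.26 ± 0.10, adjusted p = 0.134). STC2 was lost under the common sum. PFKP, ENO1, LDHA, SLC2A1 and VARS overlap another annotated gene on their own strand. VARS was lost under TPM. The calls of PFKP, ENO1 and LARS ended without library 5, 6, 11 or 12 (adjusted p = 0.0732 to 0.135). The calls of STC2 and VARS ended without library 3, 4, 5, 6, 9, 10, 11 or 12 (adjusted p = 0.0535 to 0.211). The call of HK2 ended without library 5 or 12 (adjusted p = 0.0829 to 0.0886). The call of SLC3A2 ended without library 5, 11 or 12 (adjusted p = 0.0582 to 0.0966). The call of BHLHE40 ended without library 6, 11 or 12 (adjusted p = 0.0598 to 0.0886).

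Of 24 genes of cholesterol synthesis and SREBP2 targets, 6 rose and none fell, with a median of 0.07. INSIG1, the sterol sensor that holds SREBP back, was at 34 and 33.5 FPKM at 16 h and 44.3 and 47.4 FPKM at 24 h (0.43 ± 0.08, adjusted p = 0.0229). The enzymes MSMO1 (36.6 and 36.8 FPKM at 16 h and 45.2 and 44.9 FPKM at 24 h, 0.29 ± 0.04, adjusted p = 0.0119), FDFT1 (215 and 220.2 FPKM at 16 h and 258 and 262 FPKM at 24 h, 0.25 ± 0.04, adjusted p = 0.0134), ACAT2 (0.24) and IDI1 (0.17) were among those that rose by less. HMGCS1 (-0.08 ± 0.07, adjusted p = 0.498) did not pass. The count was 7 under TPM, and 3 both with nuclear genes brought to the same total and with median-of-ratios scaling, where ACAT2 was lost, and it was 0, 0, 0 and 0 without library 5, 6, 11 and 12. Of 14 genes of fatty acid synthesis and SREBP1 targets SCD rose, the others were not called, and the median was 0.24. IDI1 was lost with a pseudocount of 0.1, with nuclear genes brought to the same total and with median-of-ratios scaling. The calls of INSIG1, MSMO1 and FDFT1 ended without library 5, 6, 11 or 12 (adjusted p = 0.0508 to 0.143). The calls of ACAT2 and IDI1 ended without library 1, 2, 3, 4, 5, 6, 9, 10, 11 or 12 (adjusted p = 0.055 to 0.231).

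Among 16 heat shock chaperones 4 rose and none fell, with a median of 0.08. BAG3, a co-chaperone of HSP70, was at 96.1 and 98.5 FPKM at 16 h and 121 and 123 FPKM at 24 h (0.32 ± 0.04, adjusted p = 0.00702). HSPB1, the small heat shock protein HSP27, was at 948 and 909 FPKM at 16 h and 1081 and 1162 FPKM at 24 h (0.27 ± 0.05, adjusted p = 0.0204), DNAJB1 at 218 and 215 FPKM at 16 h and 256 and 255 FPKM at 24 h (0.23 ± 0.03, adjusted p = 0.0127), and HSPA4 changed by 0.26. Values of all 4 were higher in both libraries at 24 h. The count was 6 after rescaling to a common sum and 3 with median-of-ratios scaling, and 0, 1, 1 and 0 without library 5, 6, 11 and 12. CCT7, a subunit of the TRiC chaperonin, fell (-0.23), as did PHB (prohibitin, -0.37), which was lost under the common sum. HSPA4 overlaps another annotated gene on its own strand. HSPA4 was lost with nuclear genes brought to the same total and with median-of-ratios scaling. The calls of HSPB1, DNAJB1 and CCT7 ended without library 5, 6, 11 or 12 (adjusted p = 0.0524 to 0.147). The call of BAG3 ended without library 5 or 12 (adjusted p = 0.0677 to 0.0691). The call of PHB ended without library 1, 2, 5, 6, 9, 10, 11 or 12 (adjusted p = 0.0505 to 0.163). The call of HSPA4 ended without library 1, 2, 3, 4, 5, 6, 9, 10, 11 or 12 (adjusted p = 0.0677 to 0.241).

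Of 27 p53 targets 4 fell and 1 rose, with a median of 0.02. The death effectors BAX (40.5 and 42.5 FPKM at 16 h and 32.3 and 34.9 FPKM at 24 h, -0.30 ± 0.05, adjusted p = 0.0201) and PMAIP1 (-0.26), the nuclease AEN (-0.36) and TRIAP1 (-0.29) fell, and the cytokine GDF15 rose (4.5 and 3.41 FPKM at 16 h and 5.86 and 6.74 FPKM at 24 h, 0.57 ± 0.13, adjusted p = 0.0403). The standard targets CDKN1A (0.15 ± 0.09, adjusted p = 0.347) and MDM2 (0.14 ± 0.06, adjusted p = 0.202) were not called. Of 12 NF-kB targets NFKBIA, the inhibitor of NF-kB, rose (0.25) and RELB fell (-0.27), and of 23 immediate early and AP-1 genes JUNB rose (0.25) and FOSL1 and KLF6 fell. JUNB was lost with median-of-ratios scaling and RELB under the common sum. GDF15 and MDM2 overlap another annotated gene on their own strand. TRIAP1 was lost under TPM. The calls of BAX, PMAIP1 and NFKBIA ended without library 5, 6, 11 or 12 (adjusted p = 0.0582 to 0.142). The calls of AEN and JUNB ended without library 1, 2, 5, 6, 9, 10, 11 or 12 (adjusted p = 0.0506 to 0.209). The calls of GDF15 and RELB ended without library 1, 2, 3, 4, 5, 6, 9, 10, 11 or 12 (adjusted p = 0.0568 to 0.235). The call of TRIAP1 ended without library 3, 4, 5, 6, 9, 10, 11 or 12 (adjusted p = 0.0568 to 0.202).

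The remaining protein-coding genes with the largest changes included subunits of nuclear and membrane complexes. Upward, SF3A1, a subunit of the U2 spliceosome particle, was at 74.4 and 70.6 FPKM at 16 h and 125 and 152 FPKM at 24 h (0.91 ± 0.17, adjusted p = 0.0229). ZNF12, a zinc finger gene, was at 6.64 and 6.29 FPKM at 16 h and 13.3 and 10.8 FPKM at 24 h (0.80 ± 0.15, adjusted p = 0.0233), ARID3A, a DNA-binding factor, at 4.92 and 5.62 FPKM at 16 h and 10.4 and 9.15 FPKM at 24 h (0.78 ± 0.14, adjusted p = 0.0219), and NABP1, which binds single-stranded DNA, at 6.95 and 6.29 FPKM at 16 h and 11.1 and 11.3 FPKM at 24 h (0.68 ± 0.08, adjusted p = 0.0066). KIAA1143 (0.65), the thioesterase ACOT13 (0.62), the small GTPase RHOF (0.61) and AC024592.3 (0.83) also rose. In SF3A1 and ZNF12 the 24 h values were far apart, and both still lay above the 16 h values. Downward, YIPF4, a Golgi protein, was at 11.9 and 10.2 FPKM at 16 h and 4.75 and 6.09 FPKM at 24 h (-0.91 ± 0.14, adjusted p = 0.0143), ATP5MG, a subunit of ATP synthase, at 362 and 312 FPKM at 16 h and 173 and 189.9 FPKM at 24 h (-0.89 ± 0.19, adjusted p = 0.0323), and TOMM7, of the mitochondrial import pore, at 244 and 192 FPKM at 16 h and 142 and 121 FPKM at 24 h (-0.72 ± 0.15, adjusted p = 0.0324). HYPK (-0.96), TMEM99 (-0.65), SIVA1 (-0.64), TMEM208 (-0.63), the proton pump subunit ATP6V0B (-0.62) and the mannosidase MAN2C1 (-0.56) fell as well. AC073896.1, which overlaps CS and CNPY2, fell from 19.9 and 27.8 FPKM to 5.46 and 2.24 FPKM (-2.42 ± 0.36, adjusted p = 0.0136), and AC024592.3, HYPK, ATP5MG, ARID3A, NABP1 and RHOF likewise overlap another gene on their own strand, so these 7 are uncertain. The calls of SF3A1, ZNF12, ARID3A, AC024592.3, YIPF4, TMEM99, TMEM208, ATP6V0B and MAN2C1 ended without library 5, 6, 11 or 12 (adjusted p = 0.0522 to 0.165). The calls of ACOT13 and ATP5MG ended without library 1, 2, 5, 6, 9, 10, 11 or 12 (adjusted p = 0.0541 to 0.206). The calls of RHOF and AC073896.1 ended without library 5, 6 or 12 (adjusted p = 0.055 to 0.0893). The calls of TOMM7 and SIVA1 ended without library 5, 6, 9, 10, 11 or 12 (adjusted p = 0.0552 to 0.183). The call of NABP1 ended without library 12 (adjusted p = 0.0516). The call of KIAA1143 ended without library 1, 2, 5, 11 or 12 (adjusted p = 0.0518 to 0.165). The call of HYPK ended without library 1, 2, 3, 4, 5, 6, 9, 10, 11 or 12 (adjusted p = 0.0544 to 0.208).

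Of the called genes 13 had a library listed at 0, of which 2 were annotated as protein-coding. BCYRN1, the cytoplasmic RNA BC200 that regulates translation, was listed at 0 in both 16 h libraries and at 609.7 and 719 FPKM in both 24 h libraries (adjusted p = 0.000301). In the dosed libraries it was at 82.7 and 436 FPKM at 20 nM and 16 h, 0 and 0 FPKM at 20 nM and 24 h, 229 and 232 FPKM at 100 nM and 16 h, and 395 and 430.2 FPKM at 100 nM and 24 h. It was thus at 0 in both libraries of 2 of the 6 groups, those of solvent at 16 h and 20 nM at 24 h. SNORD17, a small nucleolar RNA, was at 22.5 and 8.85 FPKM at 16 h and listed at 0 at 24 h (adjusted p = 0.0226), and RN7SL333P, a copy of the signal recognition particle RNA, at 2.37 and 1.77 FPKM and at 0. RN7SL333P was also at 0 in all 8 dosed libraries, so it entered the test only through the 16 h pair and its call carries no weight, although it passed every fit that left out 1 library. A further 2 called genes, RN7SL657P and AL359962.2, likewise reached 1 FPKM in no library outside 1 solvent group. AC008764.4, annotated as protein-coding and overlapping 7 genes on its strand, was listed at 0 at 16 h and at 3.35 and 7.95 FPKM at 24 h (adjusted p = 0.0311). A value of 0 in such a table can be a failed estimate, and poly(A) selection captures RNAs without a tail poorly, so no fold is given. RF00024, with no library at 0 and uncertain for its overlap with TERC, fell from 18.8 and 20.1 FPKM to 3.88 and 4.12 FPKM (-2.03 ± 0.21, adjusted p = 0.00464). By class, 5 of 42 miscellaneous small RNAs (11.9%), 15 of 514 antisense genes (2.92%) and 698 of 11660 protein-coding genes (5.99%) were called. SNORD17 overlaps another annotated gene on its own strand. The call of AC008764.4 ended without library 1, 2, 5, 6, 9, 10, 11 or 12 (adjusted p = 0.0516 to 0.179). The call of SNORD17 ended without library 5, 6, 11 or 12 (adjusted p = 0.055 to 0.134).

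Across the 37 lists, members were called at 103 of 755 places (13.6%, a gene counting once for each list it is in), 51 up and 52 down, against 5.62% of all tested genes. The lists were written with earlier results of these data known, so the higher share is no result about their processes. Without library 5, 6, 11 and 12 the number of places fell to 6, 20, 12 and 11. In several further lists hardly any member was called. Of 25 interferon-stimulated genes IFIT1 rose (0.36), of 13 genes of antigen presentation TAPBP (tapasin) rose (0.35), of 23 genes of epithelial junctions JUP (plakoglobin) rose (0.29), and of 6 glucose-sensing targets MLXIP rose (0.35). Of 30 genes of autophagy and lysosomes GABARAP, which coats autophagosomes, rose (161 and 187 FPKM at 16 h and 239 and 278 FPKM at 24 h, 0.57 ± 0.11, adjusted p = 0.0252) and GLA fell (-0.33). Of 16 clock genes BHLHE40 was the only member called. No member was called among 20 genes of the unfolded protein response, 6 keratins and 4 genes of intestinal differentiation, and in these lists 0 calls at an adjusted p under 0.05 by limma do not show an absence of change. GABARAP overlaps another annotated gene on its own strand. The calls of TAPBP and MLXIP ended without library 1, 2, 5, 6, 9, 10, 11 or 12 (adjusted p = 0.0541 to 0.188). The calls of GABARAP and JUP ended without library 5, 6, 11 or 12 (adjusted p = 0.055 to 0.155). The call of IFIT1 ended without library 5, 6, 9, 10, 11 or 12 (adjusted p = 0.0538 to 0.13). The call of GLA ended without library 5, 6 or 11 (adjusted p = 0.0867 to 0.123).

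**Figure D3:**
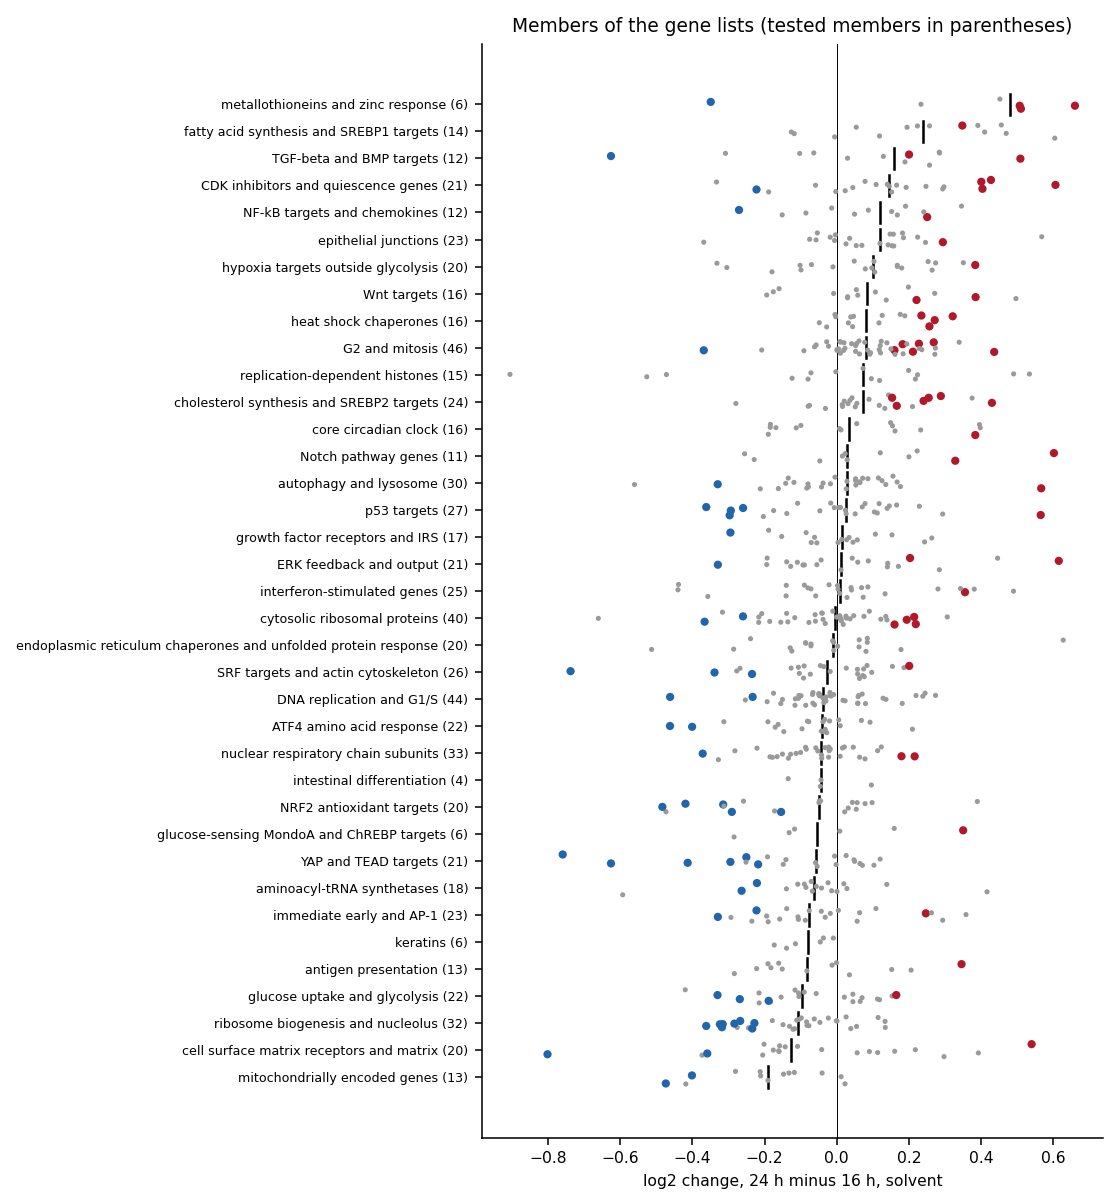
Log2 change at 24 h minus 16 h in solvent (x axis) for each tested member of the gene lists (rows, ordered by median). Large red and blue points are members called higher and lower, small grey points were not called, and black bars are medians. Medians run from -0.19 for mitochondrially encoded genes to 0.48 for metallothioneins, and most members of most lists lie close to 0.

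The same step from 16 h to 24 h was then read in cells given dolastatin 15. Their libraries entered the solvent comparison only through the shared estimate of spread. Calls in solvent and at the doses use that same estimate, so they are not independent. More genes changed in dosed cells than in solvent. At 20 nM there were 3998 of 13458 (29.7%, with 19.0% up and 10.7% down). At 100 nM there were 3693 (27.4%, with 16.4% up and 11.1% down). Of the 756 genes called in solvent, 549 moved the same way at 20 nM (72.6%, against 59.7% of all tested genes) and 587 at 100 nM (77.6%, against 59.4%). The step was called in the same direction for 309 at 20 nM and 334 at 100 nM, and in the opposite direction for 69 and 53. A set of 233 genes was called the same way under all 3 conditions, 154 up and 79 down. It held CYR61 (-0.76 in solvent, -0.60 at 20 nM, -0.39 at 100 nM), THBS1 (-0.80, -0.80 and -0.73), MT-RNR1 (-0.94, -0.79 and -1.01), SPRY4 (0.62, 0.66 and 0.84), HES1 (0.60, 0.52 and 1.16), MT2A (0.66, 0.53 and 0.87) and GABARAP (0.57, 0.81 and 0.91). The factors CREB1 (0.58, 0.60 and 0.56) and ARID5B (0.59, 0.72 and 0.67) and the homeobox gene HOXA4 (0.55, 0.87 and 0.89) were further members. Names here were picked after their values were seen. These genes differed between the 2 times with and without the drug. At 100 nM, however, CYR61 fell less than in solvent (difference 0.37, adjusted p = 0.0087) and HES1 rose more (difference 0.56, adjusted p = 0.00127). Handling that differed between the times would be shared by all 3 conditions, so it cannot be told apart from time in culture here. The step at 20 nM was called for 2337 genes without library 1, 2000.0 without library 2 and 2562 without library 8, and that at 100 nM for 2452, 2327, 2115 and 2057 genes without library 3, 4, 9 and 10. HOXA4 overlaps another annotated gene on its own strand. The calls of CREB1, ARID5B and HOXA4 ended without library 5, 6, 11 or 12 (adjusted p = 0.0692 to 0.16).

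**Figure D4:**
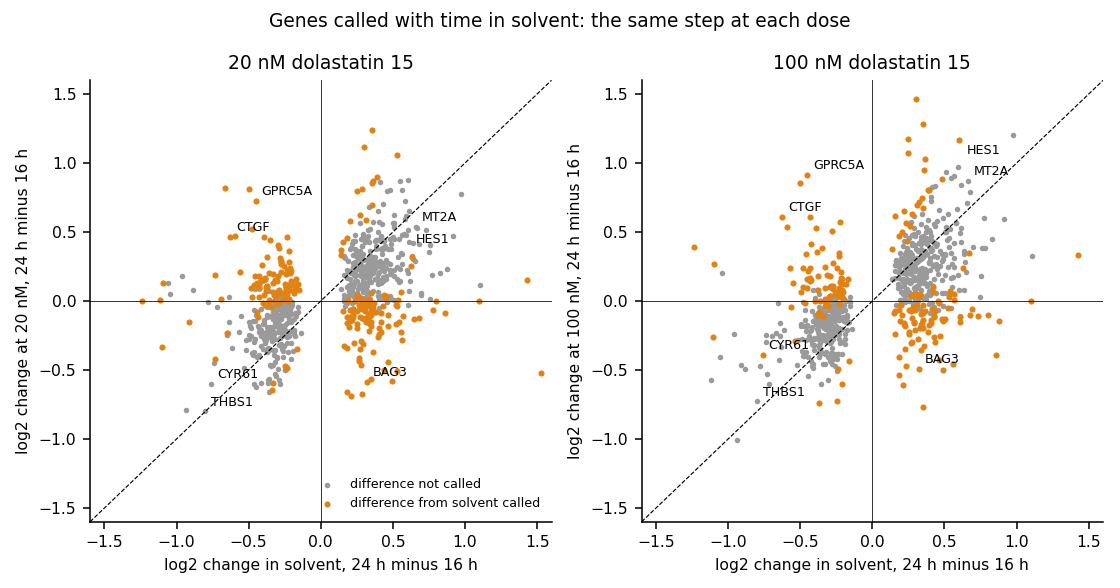
The 756 genes called with time in solvent, with their log2 change in solvent (x axis) against the same step at 20 nM (left) and 100 nM (right). Orange points are the 240 and 199 genes whose change differed from that in solvent, the dashed line marks equal change, and 14 genes on the left and 15 on the right lie outside the axes. Most points fall in the quadrants of equal sign, and CTGF, GPRC5A and BAG3 lie in those of opposite sign.

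The time change differed from that in solvent for 1550 tested genes at 20 nM (11.5%) and 1368 at 100 nM (10.2%), by the test of the difference itself, and among the 756 genes for 240 (31.7%) and 199 (26.3%). The 2 differences share the solvent libraries. The 756 genes were picked on the solvent change that enters both differences, so a higher share among them follows from that choice. Fewer were called at 20 nM without library 1, 2, 5, 6, 11 or 12 (between 705 and 998 genes) and at 100 nM without library 4, 5, 6, 9, 10, 11 or 12 (between 632 and 731 genes). A set of 33 genes was called in solvent and called in the opposite direction at both doses, 16 up and 17 down in solvent. Both differences were called for all 33, which was nearly fixed in advance because each joins 2 called changes of opposite sign. CTGF was the largest decrease in solvent among them, with -0.63 in solvent, 0.47 at 20 nM and 0.61 at 100 nM and differences of 1.09 at 20 nM (adjusted p = 0.00181) and 1.24 at 100 nM (adjusted p = 0.00101). It shared the YAP list with CYR61 but not its course in dosed cells. At 16 h CTGF was at 3.64 and 3.64 FPKM at 20 nM and 2.53 and 2.1 FPKM at 100 nM. Those levels lay below solvent at both times, 8.93 and 7.95 FPKM at 16 h and 5.02 and 5.2 FPKM at 24 h. The rise of CTGF at each dose thus began from a lower level. The receptor gene GPRC5A had -0.45 in solvent, 0.73 at 20 nM and 0.91 at 100 nM, and KRTAP2-3 had -0.50 in solvent, 0.81 at 20 nM and 0.86 at 100 nM. SLC30A1 (-0.35 in solvent, 0.45 at 20 nM and 0.38 at 100 nM), KLF6 (-0.22 in solvent, 0.36 at 20 nM and 0.57 at 100 nM) and RFC2 (-0.23 in solvent, 0.47 at 20 nM and 0.33 at 100 nM) behaved alike. All 6 fell in solvent and rose at both doses. Genes that went the other way included members of the G2 and mitosis list. BUB1B had 0.44 in solvent, -0.50 at 20 nM and -0.29 at 100 nM, and PLK1 had 0.21 in solvent, -0.69 at 20 nM and -0.61 at 100 nM. CDC25B (0.23 in solvent, -0.31 at 20 nM and -0.35 at 100 nM) and KIF20A (0.18 in solvent, -0.66 at 20 nM and -0.54 at 100 nM) followed the same order. The whole list had a median of 0.08 in solvent, -0.32 at 20 nM and -0.45 at 100 nM. The co-chaperone BAG3 had 0.32 in solvent, -0.59 at 20 nM and -0.49 at 100 nM, the factor E2F5 0.46 in solvent, -0.44 at 20 nM and -0.43 at 100 nM and the chromatin gene MTA1 0.40 in solvent, -0.26 at 20 nM and -0.17 at 100 nM. At 16 h PLK1 was at 229 and 226 FPKM at 20 nM, 256 and 265 FPKM at 100 nM, and 167 and 165 FPKM in solvent. BUB1B, KIF20A, CDC25B, BAG3 and MTA1 were likewise higher at 16 h in every dosed library than in solvent, while values of E2F5 overlapped. Except for E2F5, these falls thus began from a higher level. GPRC5A, KRTAP2-3, SLC30A1, KLF6 and RFC2 began lower at both doses than in solvent. GPRC5A and MTA1 overlap another annotated gene on their own strand. The calls of GPRC5A, KRTAP2-3 and MTA1 ended without library 5 (adjusted p = 0.0567). The calls of CTGF and E2F5 ended without library 5, 11 or 12 (adjusted p = 0.0583 to 0.143). The calls of SLC30A1 and PLK1 ended without library 5, 6, 11 or 12 (adjusted p = 0.0715 to 0.142). The call of KLF6 ended without library 1, 2, 5, 6, 9, 10, 11 or 12 (adjusted p = 0.0582 to 0.204). The call of RFC2 ended without library 5, 6, 9, 10, 11 or 12 (adjusted p = 0.0554 to 0.16). The call of BUB1B ended without library 5, 6 or 11 (adjusted p = 0.0586 to 0.0918). The call of CDC25B ended without library 1, 2, 3, 4, 5, 6, 11 or 12 (adjusted p = 0.0613 to 0.212). The call of KIF20A ended without library 1, 2, 3, 4, 5, 6, 9, 10, 11 or 12 (adjusted p = 0.0609 to 0.237). The call of BAG3 ended without library 5 or 12 (adjusted p = 0.0677 to 0.0691). These calls are those in solvent. KLF6 was also lost under the common sum, and KIF20A and CDC25B over nuclear genes and with median-of-ratios scaling.

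**Figure D5:**
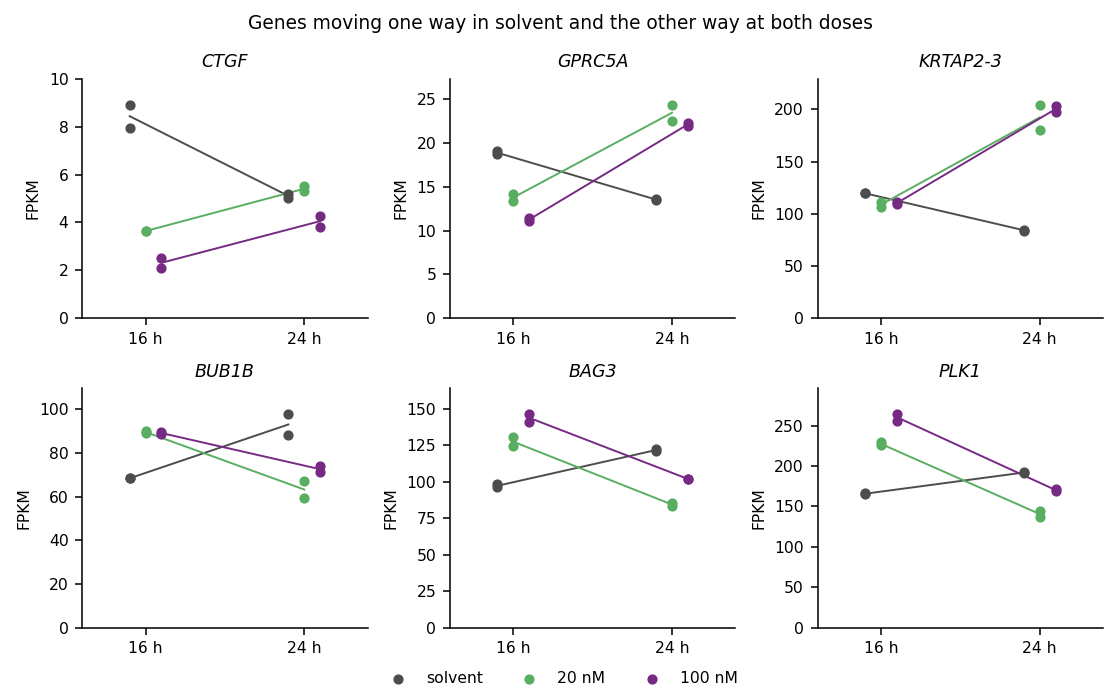
FPKM (y axis, from 0) of 6 genes at 16 h and 24 h in all 12 libraries, with points for libraries and lines joining group means, for solvent (grey), 20 nM (green) and 100 nM (purple). CTGF, GPRC5A and KRTAP2-3 fell in solvent and rose at both doses, and BUB1B, BAG3 and PLK1 did the reverse.

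For 52 of the 756 genes the change in solvent differed from both doses, and the step was called at neither dose. Among them were SFPQ (0.35 in solvent, -0.06 at 20 nM and -0.09 at 100 nM), SCD (0.35 in solvent, 0.06 at 20 nM and -0.03 at 100 nM), SDC1 (0.54 in solvent, -0.15 at 20 nM and 0.07 at 100 nM), NABP1 (0.68 in solvent, -0.12 at 20 nM and -0.10 at 100 nM), the actin regulators LIMK1 (0.53 in solvent, -0.04 at 20 nM and 0.03 at 100 nM) and ENAH (0.32 in solvent, 0.00 at 20 nM and 0.03 at 100 nM), and ESRP1, an epithelial splicing factor (0.34 in solvent, 0.01 at 20 nM and -0.10 at 100 nM), all higher with time in solvent. SLC3A2 (-0.40 in solvent, -0.01 at 20 nM and 0.00 at 100 nM), PMAIP1 (-0.26 in solvent, 0.01 at 20 nM and 0.06 at 100 nM) and UTP4 (-0.23 in solvent, 0.00 at 20 nM and -0.02 at 100 nM) were lower with time in solvent. For SFPQ the differences were -0.41 at 20 nM (adjusted p = 0.00242) and -0.44 at 100 nM (adjusted p = 0.00169), and for SCD they were -0.29 at 20 nM (adjusted p = 0.0144) and -0.37 at 100 nM (adjusted p = 0.00553). Both genes belong to those called in every fit that left out 1 library. At 16 h SFPQ was already at 289 and 286 FPKM at 20 nM and 300 and 301 FPKM at 100 nM. That was near its solvent level at 24 h. SCD was at 170 and 171 FPKM at 20 nM and 172 and 183 FPKM at 100 nM at 16 h, below solvent at both times. Whether the drug altered the response to time, or moved the level before 16 h, was not tested. Rescaling to a common sum moved the median difference between 20 nM and solvent from 0.03 to -0.14 over all tested genes, and differences at that dose are to be read against it. ESRP1 overlaps another annotated gene on its own strand. The calls of PMAIP1, LIMK1, ENAH and ESRP1 ended without library 5, 6, 11 or 12 (adjusted p = 0.0532 to 0.142). The call of SDC1 ended without library 5 (adjusted p = 0.0567). The call of NABP1 ended without library 12 (adjusted p = 0.0516). The call of SLC3A2 ended without library 5, 11 or 12 (adjusted p = 0.0582 to 0.0966).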

How the data were processed

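RNA of 12 HCT116 samples was sequenced after poly(A) selection with a directional kit, per the labels' protocols. The authors deposited 1 table of FPKM per gene and library for 58174 genes. Per the submitters' processing notes, RSEM 1.2.28 was used with GRCh38. For the aligner, annotation release and strand setting, the answer is not given in the sources used here. RSEM divides reads among near-identical copies, and without the strand setting overlapping genes cannot be told apart.

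Symbols came from GENCODE 29 by identifier (57836 genes, with 338 unmatched). Columns name a group and a library number. The test took genes that reached 1 FPKM in 2 or more libraries (13458, 11660 of them protein-coding). The deposited FPKM became log2(FPKM + 1), which understates changes of low genes. A model of 6 group means with a trend prior was fitted by limma 3.58.1 under R 4.3.3 (6 residual and 2.98 prior degrees of freedom), two-sided, with Benjamini-Hochberg adjustment over all tested genes, and its adjusted p under 0.05 was a call. The fit was tested on simulated data with independent normal noise and changes set in genes above 5 FPKM. It called 47.2% of changes of 1.25-fold, 88.4% of 1.5-fold and 98.4% of 2-fold. Of its calls 6.18% were false. No difference of handling between the times was simulated. Relative depth was fitted from the steps between low FPKM values below a mean of 2 (residual SD 0.0183 on the log2 scale over 66 library pairs), which gives no read counts, so no counting interval was set. In each group 1.2% (16 h) and 1.0% (24 h) of tested values were identical between libraries, so none was taken for a copy.

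Named genes were the 15 largest increases and decreases among called protein-coding genes with non-overlapping groups and a mean of at least 5 FPKM, the 10 called genes each way with the largest FPKM difference (mitochondrially encoded genes excepted), and list members. The 37 lists (847 symbols with 4 marker lists, all found), the comparisons and the rule were chosen with earlier results of these data known, and examples were picked with their values in view. Promoters came from the RefSeq table (GRCh38.p14, 9886 tested genes matched). Alternatives were other pseudocounts (0.1, 0.5), filters, scalings and priors, the solvent libraries alone, protein-coding genes alone and leaving out each library. A few list members are not reported here by name.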

Additional observations from a re-analysis of the deposited data

Results flagged for a closer look

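The change from 16 h to 24 h differed between solvent and dosed cultures for 1550 genes at 20 nM and 1368 genes at 100 nM, by the test of the difference in limma. Among the genes named for the size of their change in solvent, increases that were smaller or absent in dosed cells were those of ZNF12 (dose minus solvent, log2, -0.80 at 20 nM and -0.90 at 100 nM), NABP1 (-0.80 and -0.78), CNOT11 (-0.37 and -0.38), ARID3A (-0.84 at 20 nM), KIAA1143 (-0.78 at 20 nM), LARP6 (-0.31 at 20 nM) and TUBA1A (-0.32 at 100 nM). Decreases that were smaller, absent or turned in dosed cells were those of CTGF (1.09 at 20 nM and 1.24 at 100 nM), MAN2C1 (0.77 and 0.52), ODC1 (0.46 and 0.43), YIPF4 (0.76 at 20 nM), NPM1 (0.57 at 20 nM), CYR61 (0.37 at 100 nM) and PLEC (0.24 at 100 nM). BCYRN1 (adjusted p = 7.69e-05 at 20 nM and 0.000665 at 100 nM) and AC008764.4 (adjusted p = 0.00873 and 0.0439) also differed, with libraries listed at 0 in the groups compared.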

How the results depend on the processing

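The 2 libraries per time limit every call. Genes called in solvent numbered 326 with no filter on low values, 1187 after rescaling to a common sum (TPM) and 6 in the solvent libraries alone, and 23 to 1437 when 1 library was left out, the highest without library 7 or 8. They stayed within 1.5 times 756 under the pseudocounts, the higher minimum, rescaling over nuclear genes, median-of-ratios scaling, the constant prior and the restriction to protein-coding genes. Leaving out 1 library gave 2000 to 4028 genes for the step at 20 nM and 2057 to 4160 at 100 nM, and 705 to 1753 and 632 to 1787 for the differences from solvent. The difference at 20 nM had 1008 genes with no filter and 2462 under the common sum. Of 167 named genes 150 were called in solvent. No value changed direction in any fit, which was fixed in advance for called genes where only libraries were left out. Of their values under alternatives, 1002 lost the call, 18 gained it and 2645 kept their side: without library 5, 6, 11 and 12 it was lost for 132, 113, 118 and 124 genes, in the solvent libraries alone for 147, with no filter for 80 and with the constant prior for 45. Leaving out dosed libraries, the metal response motif and some settings for the dosed cells were chosen after seeing the data. No paired analysis was possible because the columns carry library numbers and not the sample numbers of the labels, so the fit with a replicate block was not run.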
